A study of Mus musculus with 12 samples.

Results

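Cluster 7 of the 12-week spleen library was a group of CD8+ T cells in which *Xcl1*, *Ccl4*, *Tnfrsf9*, *Srm* and *Odc1* were each at their highest level among the 10 clusters of that library. Its members were the cell barcodes that the authors had placed in cluster number 7. They were 372 of the 6894 cells of the library, or 5.40% (exact binomial 95% interval 4.87 to 5.96), and 372 of 20510 cells in the whole series. The cells were PD-1+CD44+CD8+ T cells sorted from NZB/W F1 mice, the first cross of NZB and NZW mice, which develops lupus nephritis with age. The series holds 3 groups of such cells from this strain: spleen taken at 12 weeks of age (12W spleen), and spleen (28W spleen) and kidney (28W kidney) taken at 28 weeks. For 28W spleen the age given in the labels (12 weeks) contradicts the sample titles, which were followed. Each group has 4 samples whose titles differ only in a running tag, its table pools them, and the number of mice is not given, so every value comes from 1 library with no replicate and no test.

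When the antigen receptor of a CD8+ T cell is engaged, the cell leaves quiescence and grows before it divides. The transcription factor Myc, ribosome assembly, nucleotide synthesis and polyamine synthesis rise during this growth phase. *Xcl1* encodes lymphotactin, a chemokine that attracts cross-presenting dendritic cells, and *Tnfrsf9* encodes the costimulatory receptor 4-1BB, which appears on T cells after antigen receptor signals. *Odc1* and *Srm* encode ornithine decarboxylase and spermidine synthase, enzymes of the polyamine pathway.

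Levels are counts of unique molecular identifiers (UMIs, 1 per captured transcript) per 1000000 UMIs of a cluster (CPM), and the comparison was cluster 7 against the summed UMIs of the 6522 other cells of 12W spleen. All intervals are 95% intervals for counting error only, exact Poisson for levels and exact conditional binomial for folds. For a gene with 0 UMIs in cluster 7 an upper limit of 0.602 CPM, the value of 3 counts, was set in place of the exact Poisson interval. The clusters were made from these same genes, so the levels describe the cells and test nothing. Cluster 7 held 4986849 UMIs, 14.4% of the library, and its mean cell had 13406 UMIs against 4562 in the other cells, 2.94 times as many. Only cluster 10 had more UMIs per cell (14345), followed by cluster 9 (7323), while the other 7 clusters ranged from 928 to 6048. Cluster 7 had the lowest share of mitochondrial transcripts (0.612%, against 1.06% to 8.99% in the other clusters). Ribosomal protein genes took 31.2% of its UMIs. A gene with the same UMIs per cell in both groups therefore has a CPM 2.94 times lower in cluster 7, so the lists with genes at least 2-fold lower in CPM are also described by UMIs per cell. Doublets could not be called from cluster means, so what part 2-cell droplets have in the UMIs per cell was not tested.

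The 5 markers each stood apart from all other clusters. *Xcl1* (chromosome 1, 164931644 to 164935527, GRCm38) was at 2088 CPM (2049 to 2129) in cluster 7 against 77.2 (74.1 to 80.4) in the other cells, a 27.1-fold difference (25.9 to 28.3). Its 10415 UMIs in cluster 7 were 81.9% of all *Xcl1* UMIs of the library. Among the other clusters cluster 6 was lowest (17.2 CPM) and cluster 9 highest (314), so the level in cluster 7 lay well above their whole range. *Ccl4* (chromosome 11, 83662584 to 83664683), a chemokine made by activated CD8+ T cells, was at 490 CPM (471 to 510) against 21.9 (20.3 to 23.7), 22.4-fold higher (20.5 to 24.4). Its next highest level was 81.8 CPM, in cluster 2.

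*Tnfrsf9* (chromosome 4, 150914562 to 150946102) was at 523 CPM (503 to 543) against 28.8 (26.9 to 30.8), 18.2-fold higher (16.8 to 19.6). Clusters 9 and 8 followed with 166 and 137 CPM, and the other 7 clusters had 27.6 or less. *Srm* (chromosome 4, 148591503 to 148594993) had 678 CPM (655 to 701) against 52.2 (49.7 to 54.9), a ratio of 13.0 (12.2 to 13.8). Cluster 9 was next at 231 CPM, and no other cluster passed 70.2. *Odc1* (chromosome 12, 17544794 to 17551505) reached 380 CPM (364 to 398) against 41.4 (39.1 to 43.8), 9.19-fold higher (8.55 to 9.88), with cluster 8 next at 190. For all 5 markers cluster 7 was the highest of the 10 clusters, which held for 26.4% of all genes tested, and cluster 7 held between 60.6% and 81.9% of the library's UMIs of each. The mean cell of cluster 7 carried 28.0 UMIs of *Xcl1* against 0.352 in the other cells, and 7.01 of *Tnfrsf9* against 0.131.

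**Figure D1:**
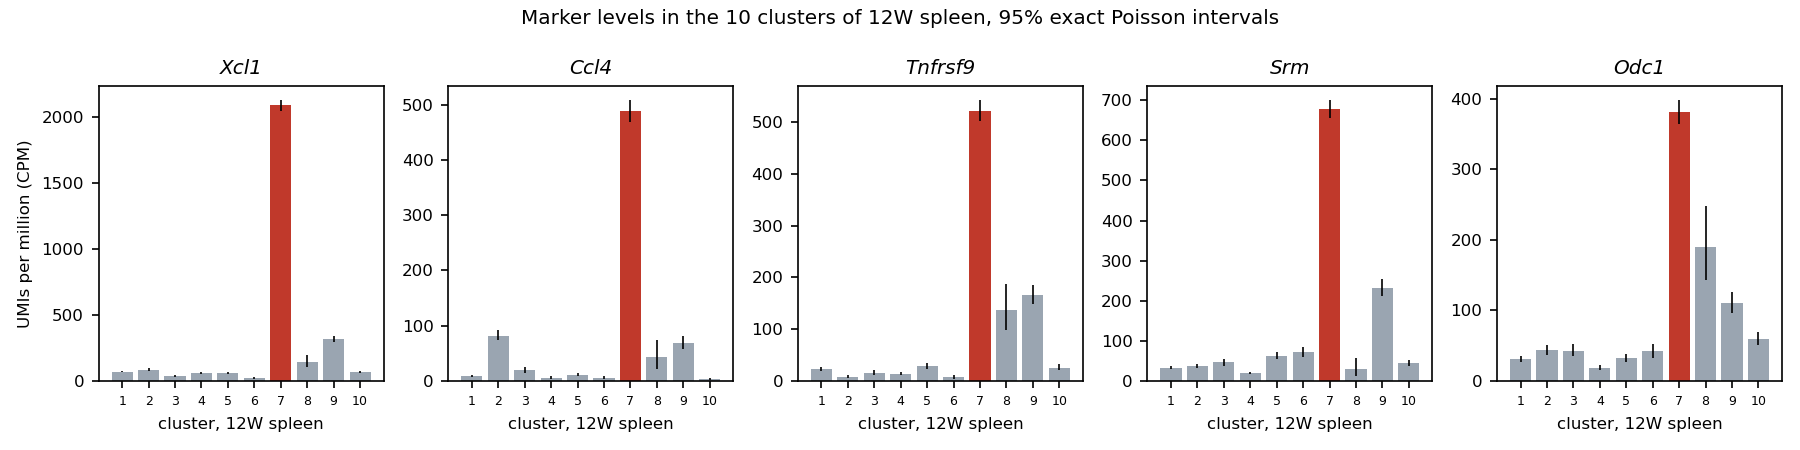
Level (CPM, linear axes from 0) of the 5 markers in each of the 10 clusters of 12W spleen, with exact Poisson 95% intervals and cluster 7 in red. Cluster 7 is the highest bar in each panel, with cluster 9 next for *Xcl1*, *Tnfrsf9* and *Srm*, cluster 2 for *Ccl4* and cluster 8 for *Odc1*.

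The label was checked against the sort and against markers of other cells. *Cd8a* had 584 CPM in cluster 7 and 592 in the other cells. *Cd8b1*, *Cd3d*, *Cd3e* and *Cd3g* had 366, 551, 595 and 544 CPM, each the lowest of the 10 clusters, against 958, 1159, 1193 and 1106, although their UMIs per cell were 4.90, 7.38, 7.97 and 7.29 against 4.37, 5.29, 5.44 and 5.05. *Cd44* had 23.1 and 32.8 CPM, and *Pdcd1*, which encodes PD-1, had 54.3 (48.1 to 61.2) and 33.6 (31.5 to 35.7). *Cd4* had 0 UMIs. The list of CD4 and regulatory T cell markers summed to 3.01 CPM over 4 genes, with *Cd4* and *Zbtb7b* at 0, and ranged from 0.664 to 25.3 in the other clusters. The gamma delta and innate-like T cell list had 3.41 CPM over 5 genes against 7.43 to 154, with *Tcrg-C1* at 0 and *Trdc* at 2.61 against 28.3 in the other cells. NK cell markers summed to 9.22 CPM over 5 genes (2.64 to 104 in the other clusters), with *Klra8* at 0. Myeloid markers summed to 9.02 CPM over 9 genes (3.96 to 371), with *Itgam*, *Adgre1* and *Xcr1* at 0 and *Fcer1g*, the only one that reached 20 CPM in either group, at 3.01 against 25.9. The 10 B cell markers summed to 111 CPM (178 to 5094 in the other clusters). Of that sum 73.8 CPM was *Ighm*, and *Igkc* had 1.20 CPM against 49.9. The 8 erythroid and neutrophil genes summed to 10.4 CPM (6.77 to 38180), with 5 of them at 0, among them *S100a8* and *S100a9*. Transcripts of CD8 and of the T cell receptor complex were thus present in cluster 7, at a lower share of UMIs than in the other clusters except for *Cd8a*.

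Over the 5832 genes with at least 20 CPM in either group, 987 were at least 2-fold higher in cluster 7 (16.9%) and 1119 at least 2-fold lower (19.2%), on ratios taken after adding 1 CPM to both levels. The median log2 ratio of these genes was -0.02, and that of the 5 markers 4.14. In UMIs per cell 67.4% of the same genes were at least 2-fold higher and 2.79% at least 2-fold lower. Cluster 7 was the lowest of the 10 clusters for 27.5% of genes. The counts of each list below are to be read beside these shares.

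Beside the markers, the 20 highest ratios among genes with at least 50 CPM included enzymes of metabolism and RNA modification. *Utf1*, a chromatin factor best known from embryonic stem cells, came first with 78.0 CPM against 1.01, 77.4-fold higher (53.3 to 116), and no other cluster had more than 5.36. *Bcat1*, the cytosolic enzyme that starts the breakdown of branched-chain amino acids, had 58.4 against 1.88 CPM. *Shmt1* and *Mthfd1*, cytosolic enzymes of the folate cycle that carries one-carbon units, had 143 against 6.59 and 167 against 19.0. *Rgs16*, an inhibitor of G protein signals from chemokine receptors, had 64.6 against 4.20. *Rangrf*, a factor of the Ran nuclear transport cycle, had 96.7 against 7.06. *Galk1* (galactokinase), *Ppa1* (a pyrophosphatase) and *Thop1* (a peptidase) were 10.6, 9.47 and 9.37-fold higher. *Mettl1*, which methylates tRNA, was 8.98-fold higher. *Dhx34* (an RNA helicase), *Tmem97* (a sterol-regulated membrane protein), *Smyd5*, *Nefh* and *Ifrd2* were between 8.12 and 11.2-fold higher. For each of these 20 genes cluster 7 was the highest of the 10 clusters. Cluster 9 was next for all of them except *Ccl4* (cluster 2) and *Rgs16*, *Dhx34*, *Tmem97* and *Odc1* (cluster 8, with 928 UMIs per cell).

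**Figure D2:**
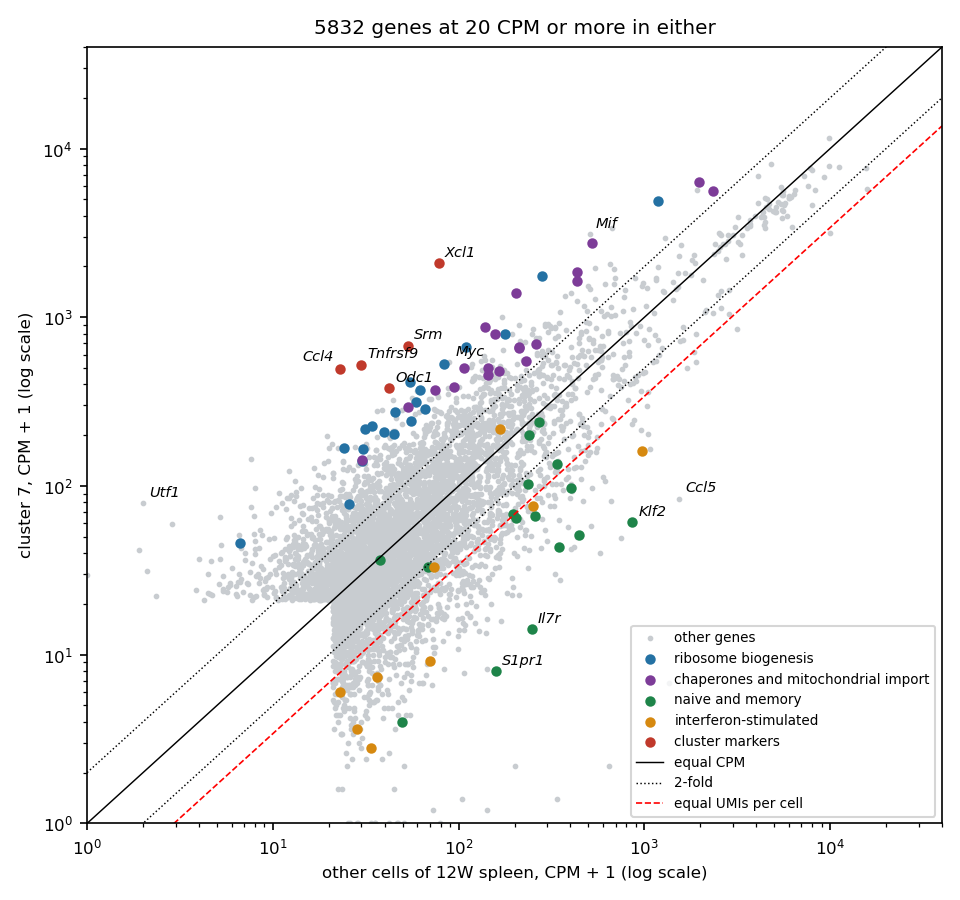
CPM + 1 in cluster 7 against CPM + 1 in the other cells of 12W spleen for the 5832 genes with at least 20 CPM in either, both axes on a log scale. Markers, ribosome biogenesis and chaperone genes lie above the upper dotted line (2-fold higher), naive and memory and interferon-stimulated genes mostly below the lower one, and the red dashed line marks equal UMIs per cell.

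Ribosome assembly genes were higher without exception. All 20 members of the list were at least 2-fold higher (16.9% over all genes), with a median log2 ratio of 2.51, and cluster 7 was the highest of the 10 clusters for 19 of them. The exception was *Gnl3*, a nucleolar GTPase, at 208 CPM against 256 in cluster 8. *Ncl*, the nucleolar protein nucleolin, had 1764 CPM (1727 to 1801) against 279 (273 to 285), and its mean was 23.7 UMIs per cell against 1.27. *Npm1*, which shuttles ribosomal particles, had 4910 against 1181 CPM, 4.16-fold higher. On the ratio with 1 CPM added, *Mrto4*, a ribosome assembly factor, was highest in the list, with 411 against 53.4 CPM, and *Bop1* lowest, with 77.6 against 24.6. *Fbl*, the methyltransferase of box C/D particles, was 4.51-fold higher and *Polr1b*, a subunit of RNA polymerase I, 7.91-fold higher. Summed over the list, cluster 7 had 12000 CPM (11910 to 12100), against 5429 in cluster 9 and 1697 in cluster 3, the highest and the lowest of the others.

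*Myc*, which encodes a transcription factor that binds the sequence CACGTG with its partner Max, was at 541 CPM (521 to 562) against 88.2 (84.8 to 91.6), 6.13-fold higher (5.81 to 6.47). Cluster 9 was next with 247 CPM and the other clusters ranged from 48.4 to 126. The RefSeq promoter windows (GRCm38.p6, 250 bases before to 50 after each start) were searched for CACGTG, which reads the same on both strands. Windows were found for 805 of the 987 genes that were higher, and 19.3% of these genes held the motif. Among the 4598 of 5832 genes tested that had a window the share was 13.1%, among the 820 lower genes with a window 9.51%, and among all 27025 genes with a window 8.09%. Of 164 genes at least 4-fold higher, 25.6% held it. The mean GC content of the windows was 60.6% for the higher genes, 60.8% for the tested genes and 59.6% for the lower genes. It was 53.8% for all genes, so that set is not matched to the others in GC content. CACGCG, a related motif, was held by 27.7% of the higher, 22.4% of the tested and 17.3% of the lower genes, and by 10.5% of all genes. TGACTCA, the AP-1 motif, was held by 3.60%, 3.81% and 5.49% of the same 3 sets in that order, and by 5.95% of all genes. Of the 10 motifs searched, an E2F motif also fell from the higher to the tested and the lower genes. Its shares were 3.73%, 2.68% and 0.976% (30, 123 and 8 genes), and 1.24% of all genes. A short NF-kB motif fell too (2.11%, 1.91% and 1.22%), so this order was not particular to CACGTG. CRE, CCAAT, NRF1 and long NF-kB motifs were held by a smaller share of the higher than of the tested genes. The NFAT core had 65.3%, 64.9% and 65.4%. Among the 164 genes at least 4-fold higher, CRE (6.1%) and NRF1 (4.27%) exceeded their shares of the tested genes (4.09% and 2.83%). So did CACGCG (31.7%), AP-1 (4.27%), E2F (3.66%) and the NFAT core (67.1%). CCAAT (4.88%) and the short and long NF-kB motifs (1.83% and 0%) did not. A larger share at 4-fold was thus not particular to CACGTG. The motifs were chosen with the levels known, and the shares are descriptions of these letters in these windows.

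Among the ranked genes and the ribosome assembly genes with a motif before the start, 3 are shown 5′ to 3′ on the strand of the gene, in lower case with CACGTG in capitals, since they pair the motif with large ratios in cluster 7. *Galk1* and *Ppa1* were 10.6 and 9.47-fold higher, and *Nop2*, which methylates ribosomal RNA, 7.18-fold higher. The stretches lie at chr11:116012720-116012766 (minus strand, motif starting 17 bases before the start), chr10:61648451-61648516 (plus strand, 140 bases) and chr6:125131793-125131858 (plus strand, 60 bases).
Galk1: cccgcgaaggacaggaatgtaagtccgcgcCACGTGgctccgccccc
Ppa1: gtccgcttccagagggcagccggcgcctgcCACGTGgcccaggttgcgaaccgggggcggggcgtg
Nop2: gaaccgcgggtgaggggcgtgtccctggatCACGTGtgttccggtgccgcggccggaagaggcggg
*Mettl1*, *Pno1* and *Wdr43* held the motif after the start. Windows were at hand for 17 of the 20 ranked genes, 16 of the 20 ribosome assembly genes and 3 of the 5 markers. Among the ranked genes only *Galk1*, *Ppa1* and *Mettl1* held CACGTG, and among the ribosome assembly genes only *Nop2*, *Pno1* and *Wdr43*. All others of these genes with a window lacked it, so the 3 stretches shown are not typical of either set. *Xcl1*, *Tnfrsf9* and *Odc1* had no CACGTG in their windows.

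Translation and protein folding genes followed the ribosome genes. All 12 translation factors were at least 2-fold higher, with a median log2 ratio of 1.71. *Eif5a*, the factor that carries hypusine made from spermidine, had the largest ratio, 3395 against 671 CPM, and *Eif5b*, which joins the ribosomal subunits, the smallest, 198 against 82.3. All 20 chaperones, nuclear transport and mitochondrial import genes were at least 2-fold higher, with a median of 1.96. *Hspd1*, the mitochondrial chaperonin, had 1398 CPM (1365 to 1431) against 203 (198 to 208), 6.90-fold higher, and *Hspa5*, the chaperone of the endoplasmic reticulum, was last with 551 against 229. In UMIs per cell every gene of both lists was at least 2-fold higher, as were 67.4% of all genes tested.

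Part of the polyamine list was higher. *Odc1*, *Srm*, *Amd1* (which supplies the aminopropyl donor; 70.4 against 19.3 CPM), *Dohh* (31.5 against 13.2) and *Eif5a* were at least 2-fold higher, 5 of 10 members tested. *Sms*, spermine synthase, was 1.90-fold higher. *Oaz1*, whose antizyme product sends ornithine decarboxylase to the proteasome, had 1412 against 1269 CPM. *Sat1*, which acetylates polyamines for export, had 94.3 against 161 CPM, the lowest ratio of the list. *Odc1*, *Amd1*, *Srm* and *Sms*, the synthesis genes, were each highest in cluster 7 of the 10 clusters, as were *Dohh* and *Eif5a*. *Oaz1* was highest in cluster 10, *Sat1* in cluster 3 and *Dhps* in cluster 8. *Sms*, *Oaz1*, *Sat1* and *Dhps* all differed by less than 2-fold, so the 2-fold limit did not separate synthesis from the rest.

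Of 15 nucleotide and one-carbon synthesis genes, 13 were at least 2-fold higher and none lower, with a median log2 ratio of 2.005. *Shmt1* led the list. *Ctps*, which makes CTP, had 68.2 against 8.77 CPM, *Cad*, the first enzyme of pyrimidine synthesis, 63.8 against 11.6, and *Impdh2*, of GTP synthesis, 554 against 137. *Tyms*, thymidylate synthase, was lowest with 29.9 against 31.5 CPM. Cluster 7 was the highest of the 10 clusters for 13 of the 15. Glycolysis genes were at least 2-fold higher for 8 of 12, with a median of 1.19. *Tpi1* had the largest ratio, 280 against 48.3 CPM, and *Ldha*, lactate dehydrogenase A, had 1956 against 543. *Hk2*, an inducible hexokinase under the 20 CPM minimum, had 17.9 against 2.99 CPM. *Hk1*, the ubiquitous hexokinase, was the only member at least 2-fold lower in CPM, 21.5 against 49.8, but had 0.288 against 0.227 UMIs per cell. Among amino acid and sugar transporters 3 of 7 were higher. *Slc7a5*, the leucine carrier, had 83.4 against 10.96 CPM, with 109 in cluster 8, and *Slc38a2* was lowest with 57.2 against 88.0.

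**Figure D3:**
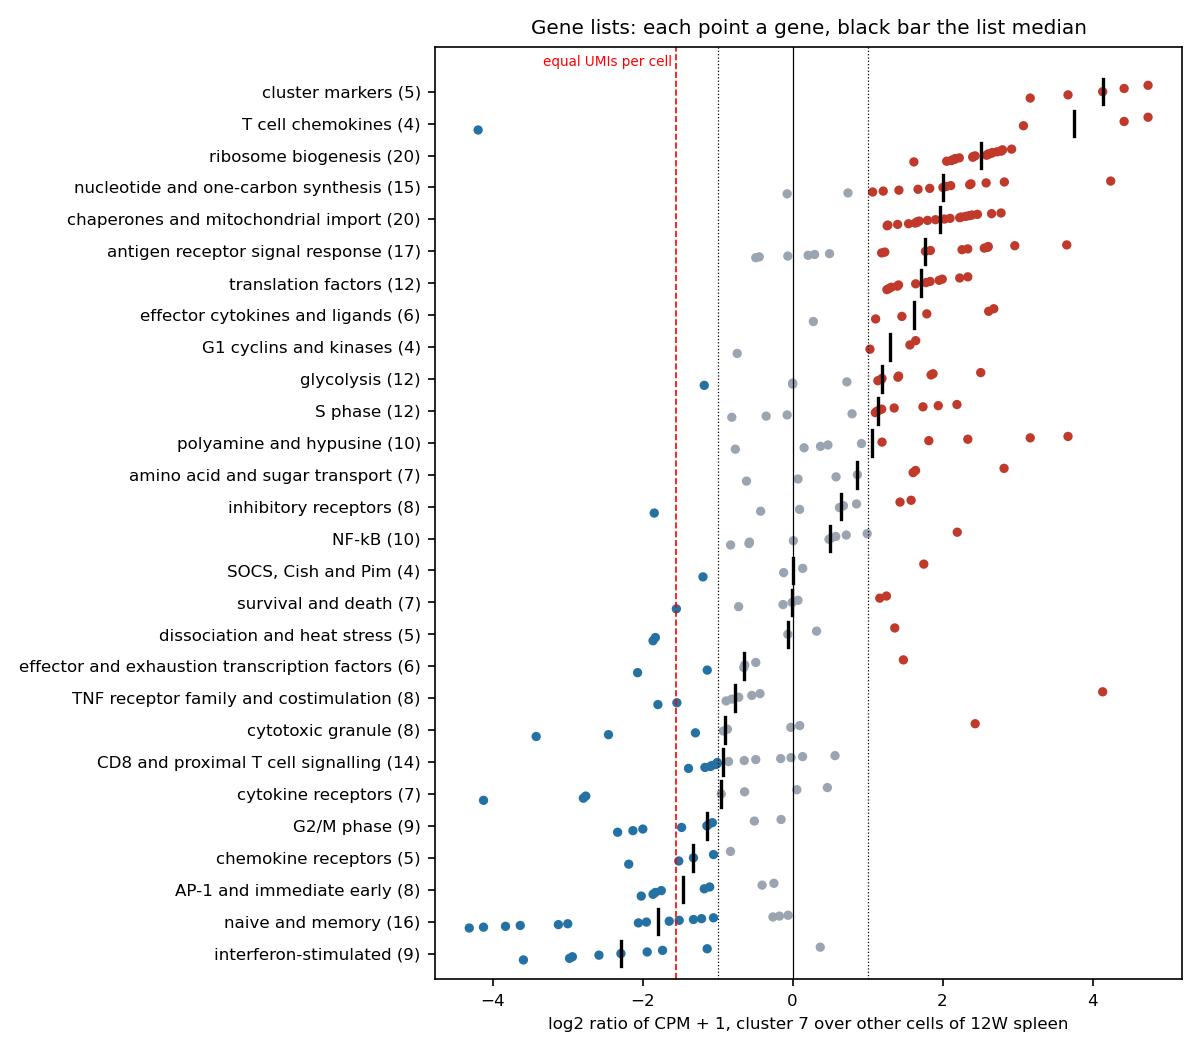
Log2 ratio of CPM + 1, cluster 7 over the other cells of 12W spleen, for each gene of the lists with at least 4 genes tested (number in parentheses). Points are genes (red at least 2-fold higher, blue at least 2-fold lower), black bars are list medians, and the red dashed line marks equal UMIs per cell. Medians of the growth lists lie to the right of 0 and those of naive and memory, AP-1 and interferon-stimulated genes to the left, while single genes of several lists cross 0.

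Genes of the antigen receptor response were higher in part. Of 17 members tested, 11 were at least 2-fold higher and none lower, with a median log2 ratio of 1.77. Beside *Rgs16* and *Myc*, *Irf4*, a transcription factor whose level follows receptor signal strength, had 35.1 against 3.63 CPM. *Irf8* had 112 against 17.5, *Cd83* 50.3 against 7.73 and *Spry1*, a feedback inhibitor of growth factor signals, 41.7 against 7.46. The orphan nuclear receptor *Nr4a1* had 211 against 43.3 CPM, with 86.8 in cluster 9. *Egr2* was 2.45-fold higher, while *Egr1* had 57.6 against 60.2 CPM and *Cd69*, an early surface marker of activation, 113 against 154. *Batf* had the lowest ratio, 41.9 against 59.3. Among 10 NF-kB genes tested only *Nfkbid*, an inhibitor family member induced by antigen, was at least 2-fold higher (77.8 against 16.2 CPM), and *Nfkbie* had the lowest ratio, 13.8 against 25.3.

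The AP-1 and immediate early list ran the other way in CPM. Of 8 members tested, 6 were at least 2-fold lower (19.2% over all genes) and none higher. *Btg2*, an antiproliferative gene, had 41.1 against 169 CPM, *Fos* 37.9 against 137 and *Jun* 42.5 against 157. *Jund* had the smallest difference, 454 against 540. In UMIs per cell none of the 8 was at least 2-fold lower (2.79% over all genes). The values were 0.508 against 0.626 for *Fos*, 0.551 against 0.773 for *Btg2* and 0.570 against 0.716 for *Jun*. The dissociation and heat stress list shares *Fos*, *Jun* and *Egr1* with these lists. *Jun* was its lowest and *Hsph1*, a heat shock cochaperone, its highest (346 against 134 CPM), and 1 of its 5 tested members was higher and 2 lower.

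Secreted and surface molecules did not move as 1 group. Of the chemokines, *Ccl3* was at 43.5 CPM (37.9 to 49.7) against 4.27 (3.56 to 5.08), 10.2-fold higher, and *Ccl1* had 15 UMIs in cluster 7 and 1 in the other cells. *Ccl5*, the chemokine of resting memory and effector CD8+ T cells, was 18.5-fold lower, at 83.0 against 1535 CPM, and cluster 7 had the lowest level of the 10 clusters, while cluster 2 reached 8055. *Ccl5* was lower per cell too, with 1.11 against 7.003 UMIs. *Mif*, macrophage migration inhibitory factor, had 3106 CPM (3057 to 3155) against 506 (498 to 514). *Tnfsf14*, the ligand LIGHT, had 53.5 against 7.49 and *Lta*, lymphotoxin alpha, 41.5 against 11.3. *Ifng* and *Tnf* were 2.97 and 2.24-fold higher, and clusters 2 and 8 had higher levels of both than cluster 7. *Tnfsf8* had 30.9 against 25.3 CPM, so 5 of 6 effector cytokines and ligands tested were at least 2-fold higher. *Il2* had 1 UMI in cluster 7, and *Csf2* and *Il21* had 0.

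Within the TNF receptor family and costimulation list *Tnfrsf9* was the only member of 8 tested that was at least 2-fold higher (16.9% over all genes). *Cd2* and *Tnfrsf18* were at least 2-fold lower (19.2% over all genes), 109 against 379 CPM and 23.5 against 70.2. No member was at least 2-fold lower per cell (2.79% over all genes), where *Cd2* had 1.45 against 1.73 UMIs and *Tnfrsf18* 0.315 against 0.321. *Cd28* had 134 against 221 CPM. *Tnfrsf4*, which encodes OX40, had 4.61 against 3.06 CPM. In the cytotoxic list *Gzmb* (granzyme B) was the only member at least 2-fold higher, 31.5 CPM (26.8 to 36.8) against 5.01 (4.24 to 5.88), with cluster 2 next at 24.5. *Gzmk* was 16.1-fold lower (1.81 against 29.0 CPM), *Gzma* 5.93-fold lower and *Ctsw* 2.46-fold lower in CPM, with 1.785 against 1.497 UMIs of *Ctsw* per cell. *Prf1* (perforin) had 23.1 against 44.6 and *Nkg7* 252 against 460 CPM. Of the 8 cytotoxic genes tested only *Gzmk* was at least 2-fold lower per cell (2.79% over all genes), and *Gzma* had 0.132 against 0.266 UMIs per cell. The NK receptor *Klrd1*, which encodes CD94, had 31.9 against 165 CPM and 0.427 against 0.752 UMIs per cell.

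Of 8 inhibitory receptor genes tested, *Cd200* (83.4 against 27.2 CPM) and *Cd160* (146 against 53.3) were at least 2-fold higher. *Ctla4* was at least 2-fold lower in CPM (9.43 against 36.4), with 0.126 against 0.166 UMIs per cell. Over all genes 16.9% were higher and 19.2% lower, so these counts do not set the list apart. *Lag3* had 35.5 against 33.2, *Tigit* 27.9 against 15.0, and *Havcr2*, which encodes TIM-3, had 1 UMI. Among effector and exhaustion transcription factors *Eomes* was 2.81-fold higher (177 against 62.9 CPM), while *Id2* was 4.27-fold lower (39.1 against 167) and *Tox* 2.23-fold lower (40.7 against 90.7). *Prdm1*, which encodes Blimp-1, had 0 UMIs. Per cell, *Tox* had 0.546 UMIs against 0.414 and *Id2* 0.524 against 0.761, so the direction for *Tox* depends on the scale.

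Genes of naive and memory T cells were lower in CPM. Of 16 members, 13 were at least 2-fold lower and none higher, with a median log2 ratio of -1.80, and cluster 7 was the lowest of the 10 clusters for 10 of them. *S1pr1*, the sphingosine 1-phosphate receptor that lets T cells leave lymphoid tissue, had 7.02 CPM against 158, 22.5-fold lower. *Il7r*, the receptor of the survival cytokine IL-7, had 13.2 against 247, 18.6-fold lower. *Klf2*, a transcription factor of quiescent T cells that drives *S1pr1*, had 59.8 against 861. *Bach2* had the smallest difference, 35.3 against 36.8. The scale mattered here. Per cell the list median was -0.25. Of the 16, 6 were at least 2-fold lower and 3 at least 2-fold higher per cell, against 2.79% and 67.4% over all genes. Among these 6 were *S1pr1* (0.0941 against 0.721 UMIs per cell), *Il7r* (0.177 against 1.12) and *Klf2* (0.801 against 3.93). *Tcf7* and *Ccr7* were lower in CPM, 101 against 236 and 135 against 338, but had 1.35 against 1.07 and 1.81 against 1.54 UMIs per cell.

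The same held for the antigen receptor complex. Of 14 CD8 and proximal signalling genes, 7 were at least 2-fold lower in CPM (19.2% over all genes) and none per cell (2.79% over all genes). *Cd3e* had 595 against 1193 CPM, but 7.97 against 5.44 UMIs per cell. *Cd8b1* had the lowest ratio, 366 against 958 CPM, with 4.90 against 4.37 UMIs per cell, and *Zap70*, the kinase recruited to the engaged receptor, the highest, 271 against 182 CPM. The shares of the T cell receptor segments most used in cluster 7 lay inside the range of the other clusters. *Trbv13-1*, *Trbv13-2* and *Trbv1* took 23.1% (22.0 to 24.3), 21.9% (20.7 to 23.0) and 12.2% (11.3 to 13.1) of its 5137 Trbv UMIs. *Trav3-3*, *Trav13-1* and *Trav8d-2* took 12.4% (11.2 to 13.6), 5.37% (4.61 to 6.21) and 3.92% (3.28 to 4.66) of its 3187 Trav UMIs. The effective number of Trbv segments was 7.20 in cluster 7, between 7.12 and 9.19 in the others, and that of Trav segments 27.98, between 25.9 and 34.8. These are shares of UMIs of segments, and clonotypes were not analysed here.

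No cytokine or chemokine receptor gene that reached 20 CPM was at least 2-fold higher. Among 7 cytokine receptors tested 3 were at least 2-fold lower, *Il7r*, *Il6ra* (2.41 against 22.6 CPM) and *Ifngr1* (27.7 against 193), all 3 also per cell, and the highest ratio was that of *Il4ra*, 65.6 against 47.3. *Il2ra*, which encodes CD25, was higher but stayed under the 20 CPM minimum, with 15.2 CPM against 2.69. Of 5 chemokine receptors tested 4 were at least 2-fold lower in CPM and none per cell (19.2% and 2.79% over all genes). *Cxcr4* had the lowest ratio (4.81 against 25.4 CPM) and *Cxcr6* the highest (53.3 against 95.4). Of the 4 kinase and feedback genes tested, *Pim3* was 3.53-fold higher and *Pim2* 2.33-fold lower in CPM, with 0.422 against 0.335 UMIs of *Pim2* per cell. In the survival list *Bid* and *Bax* were 2.45 and 2.25-fold higher and *Bcl2* was 2.98-fold lower in CPM (34.3 against 102), with 0.460 against 0.466 UMIs of *Bcl2* per cell.

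Interferon-stimulated genes were at least 2-fold lower for 8 of 9 members tested (19.2% over all genes), with a median log2 ratio of -2.29. Per cell 4 of 9 were at least 2-fold lower as well (2.79% over all genes). *Ifit3* had 1.81 CPM against 32.7, 18.1-fold lower, *Irf7*, a regulator of the interferon response, 8.22 against 69.5 and *Ifi27l2a* 161 against 970. *Bst2* was the exception, with 216 against 167. Cluster 7 was the lowest of the 10 clusters for 7 of the 9.

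The 10 lowest ratios among genes with at least 50 CPM in cluster 7 or in the other cells included 4 genes that were highest in cluster 3. These were the haemoglobin genes *Hbb-bt*, *Hba-a1* and *Hbb-bs* and the immunoglobulin joining chain *Jchain*, at 4449, 14710, 17750 and 2605 CPM in cluster 3. In cluster 7 they had 2, 21, 29 and 6 UMIs. The other 6 were *S1pr1*, *Ccl5*, *Il7r*, *S100a6*, the predicted gene *Gm45552* and *Vim*, the intermediate filament vimentin, which was at 38.9 against 574 CPM and 14.8-fold lower. *S100a6*, a calcium-binding protein of memory and effector cells, had 7.22 against 142 CPM and *Gm45552* 48.1 against 744. For each of these 6 cluster 7 was the lowest of the 10 clusters. Per cell *Vim* had 0.522 against 2.62 UMIs, *S100a6* 0.0968 against 0.646 and *Gm45552* 0.645 against 3.39. Below 50 CPM, *S100a8* and *S100a9*, at 0 UMIs, and *Igkc*, all among the markers of other cells, had lower ratios than these 6.

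Cell cycle genes differed by phase. *Cdk4* and *Ccnd2*, a kinase and a cyclin of the G1 phase, were 2.97 and 2.05-fold higher and highest in cluster 7 of all clusters. *Cdk6* was 3.32-fold higher and *Ccnd3* had 180 against 301 CPM. Of 12 S phase genes 8 were at least 2-fold higher. *Mcm2*, a subunit of the replicative helicase, had 123 CPM against 26.1, with 118 in cluster 10, and *Pclaf* had the lowest ratio, 46.9 against 83.0, with 780 in cluster 10. None of 9 G2/M genes tested was higher and 7 were at least 2-fold lower, with a median log2 ratio of -1.14. *Mki67* had 7.82 CPM (5.56 to 10.7) in cluster 7, 351 in cluster 10 and 376 in cluster 8, and *Cdk1* had 18.3 against 20.4. The other cells include cluster 10, in which the G2/M list had its highest median. Without cluster 10 the median of cluster 7 was 1.503, and per cell it was 0.40, so the sign of the G2/M list rests on that cluster and on the scale.

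**Figure D4:**
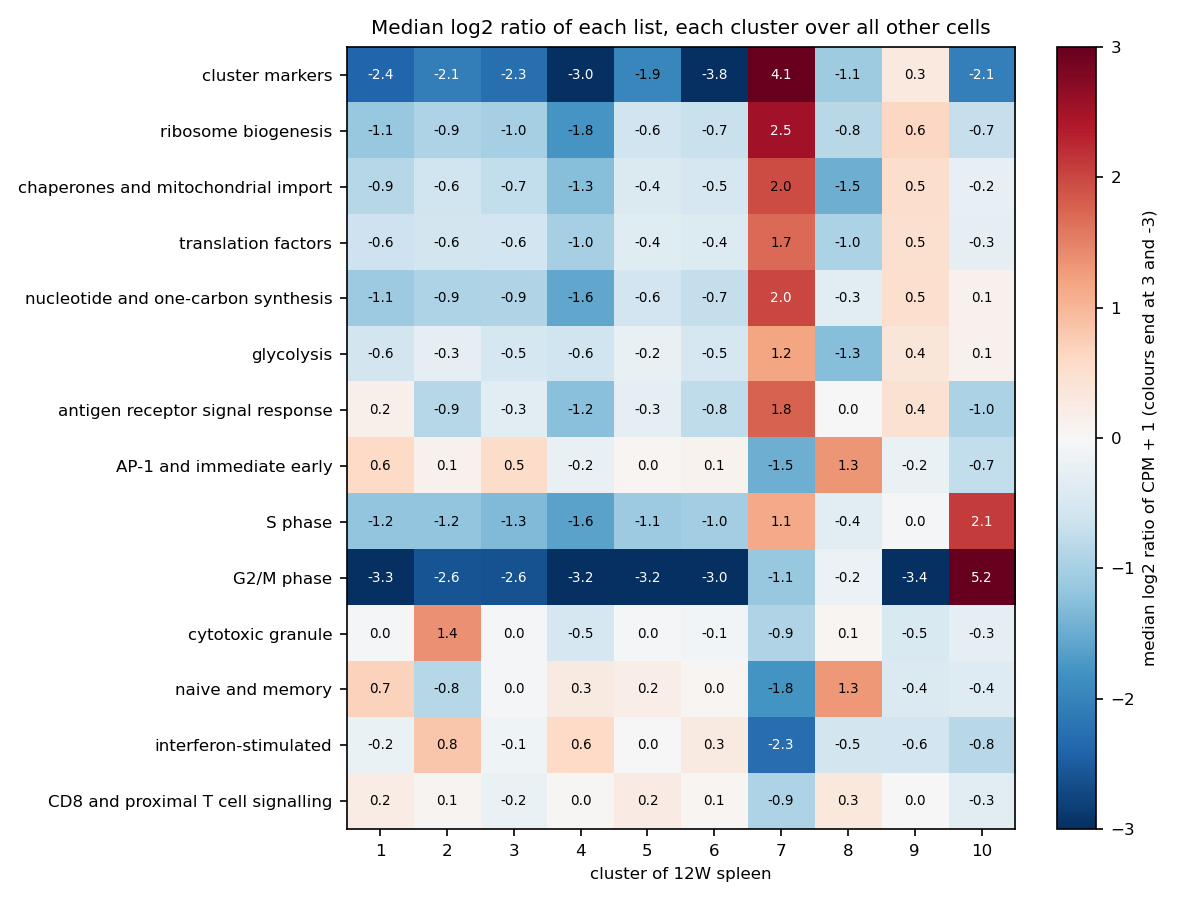
Median log2 ratio of 14 gene lists in each of the 10 clusters of 12W spleen, each cluster against all other cells of the library (red higher, blue lower, values printed). Cluster 7 has the highest median for the growth and antigen receptor lists and the lowest for naive and memory and interferon-stimulated genes, cluster 9 has smaller positive medians for the growth lists, and cluster 10 leads the S and G2/M lists.

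The 2 clusters most like cluster 7, by the Pearson correlation of log2(CPM + 1) over 5307 genes, were cluster 9 (0.915, 280 cells) and cluster 10 (0.830, 210 cells), and the other 7 had 0.330 to 0.806. Genes of 1 library share depth and are not replicates, so these are descriptions. Cluster 9 held an intermediate level of most genes that set cluster 7 apart. Of the 987 higher genes, 966 (97.9%) had a level in cluster 9 between cluster 7 and the other 8 clusters pooled, and of the 1119 lower genes 1060 (94.7%). Cluster 9 had the next highest level for 557 of the 987, and for 750 (76.0%) when cluster 8, with 928 UMIs per cell, was left out. It was the next lowest for 334 of the 1119 lower genes (29.8%). Cluster 9 was picked for its likeness to cluster 7 over these genes, so the counts describe that likeness. The median log2 ratio of ribosome assembly genes was 2.51 in cluster 7 and 0.62 in cluster 9, each against all other cells.

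Against cluster 9 itself, 5.86% of 5480 genes were at least 2-fold higher in cluster 7 and 9.53% lower. All 5 markers were higher, as were 18 of 20 ribosome assembly genes and 7 of 17 antigen receptor response genes. With a minimum of 50 CPM in 1 of the clusters, the largest ratios were those of *Utf1* (78.0 against 5.36 CPM), *Ccl4* (490 against 68.8), *Xcl1* (2088 against 314), *Dhx34* (122 against 19.0) and *Bcat1* (58.4 against 11.7). The lowest were those of *S1pr1* (7.02 against 60.5), the predicted gene *Gm26740* (6.82 against 50.7), *Klf2* (59.8 against 378), *Il7r* (13.2 against 86.3) and *Cd7*, a surface protein of T and NK cells (48.7 against 290). *Pdcd1* did not follow the markers, with 54.3 CPM in cluster 7 and 69.7 in cluster 9.

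Against cluster 10, 14.6% of 5669 genes were at least 2-fold higher and 15.7% lower. *Ccl4* had 2.32 CPM in cluster 10 and *Xcl1* 66.4, so cluster 7 was 211-fold (102 to 525) and 31.5-fold (27.4 to 36.4) higher. *Utf1* had 389 UMIs in cluster 7 and 3 in cluster 10, and *Tnfrsf9* and *Srm* were 21.0 and 15.7-fold higher. All 20 ribosome assembly genes were at least 2-fold higher than in cluster 10, although the clusters had similar UMIs per cell (13406 and 14345). Lower were genes of division. *Nusap1*, a spindle protein, *Ccnb2*, cyclin B2, and *Hmmr* were 89.0, 67.0 and 85.8-fold lower, and *Lockd* and *Mxd3* had 2 and 1 UMIs in cluster 7 against 372 and 247 in cluster 10.

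In 28W spleen the most like cluster was cluster 6 (528 of 6481 cells, 8.15%; 12208 UMIs per cell), with a correlation of 0.916 over 5306 genes. It had 584 CPM of *Xcl1*, 153 of *Tnfrsf9*, 243 of *Srm* and 176 of *Odc1*, beside 2088, 523, 678 and 380 in cluster 7 of 12W spleen. These 4 markers were also highest in cluster 6 within 28W spleen. *Ccl4* was not, at 97.9 CPM in cluster 6 against 322 in cluster 2. *Myc* had 167 CPM in cluster 6 and 541 in cluster 7, and *Utf1* 19.9 and 78.0. *Mki67*, a marker of dividing cells, had 153 CPM in cluster 6 and 7.82 in cluster 7, with 307 in cluster 11 of 28W spleen. Cluster 6 was the highest of 28W spleen for the G2/M genes *Stmn1* (569 CPM), *Birc5* (236) and *Top2a* (216). In 12W spleen these genes were highest in cluster 10, not in cluster 7. Against the other cells of its own library, cluster 6 had 10.8% of 5698 genes at least 2-fold higher and 6.58% lower. Of 874 genes that were higher in cluster 7 and tested in 28W spleen, 401 (45.9%) were at least 2-fold higher in cluster 6 and 0 lower. Of 1049 genes that were lower, 272 (25.9%) were lower in cluster 6 and 25 (2.38%) higher. Cluster 6 was chosen for its likeness to cluster 7, so these shares describe the likeness. *Il7r*, *Klf2* and *S1pr1* were at 54.0, 371 and 36.3 CPM in cluster 6, the lowest of the 11 clusters of 28W spleen in each case. Cluster 8 of 28W spleen, with 1020 UMIs per cell, also had *Xcl1* (547.5 CPM) and *Tnfrsf9* (107). That cluster also had the highest haemoglobin and neutrophil transcripts of 28W spleen, among them *Hbb-bs* (20410 CPM), *Hba-a1* (14360) and *S100a9* (8017).

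In 28W kidney no cluster held the 5 markers together. Clusters 4 and 11 had equal and highest correlations (0.768 over 5307 genes), and no kidney cluster had over 245 CPM of *Xcl1*, 33.9 of *Tnfrsf9* or 56.4 of *Srm*. *Ccl4* was spread over all 12 kidney clusters, from 142 to 743 CPM. The highest level was in cluster 12, which also had the kidney's highest level of the myeloid gene *Lyz2* (3170 CPM). Cluster 6 followed with 565 CPM of *Ccl4*. *Odc1* reached 786 CPM in cluster 8, which also had the kidney's highest *Nr4a1* (733 CPM), *Rgs16* (104), *Myc* (199) and *Tnfrsf9*. Cluster 8 was also highest in the B cell gene *Cd79a* (1074 CPM), and the next *Odc1* level in kidney was 248 CPM, in cluster 7. The tables were clustered and normalized by library, cells were not matched across libraries, kidney tissue was digested with collagenase while the preparation of spleen cells is not given in the sources used here, and age and organ each rest on 1 library. The libraries shared 52 to 66 barcodes in pairs, and 2 of the 372 barcodes of cluster 7 also occurred in 28W spleen and 0 in 28W kidney.

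**Figure D5:**
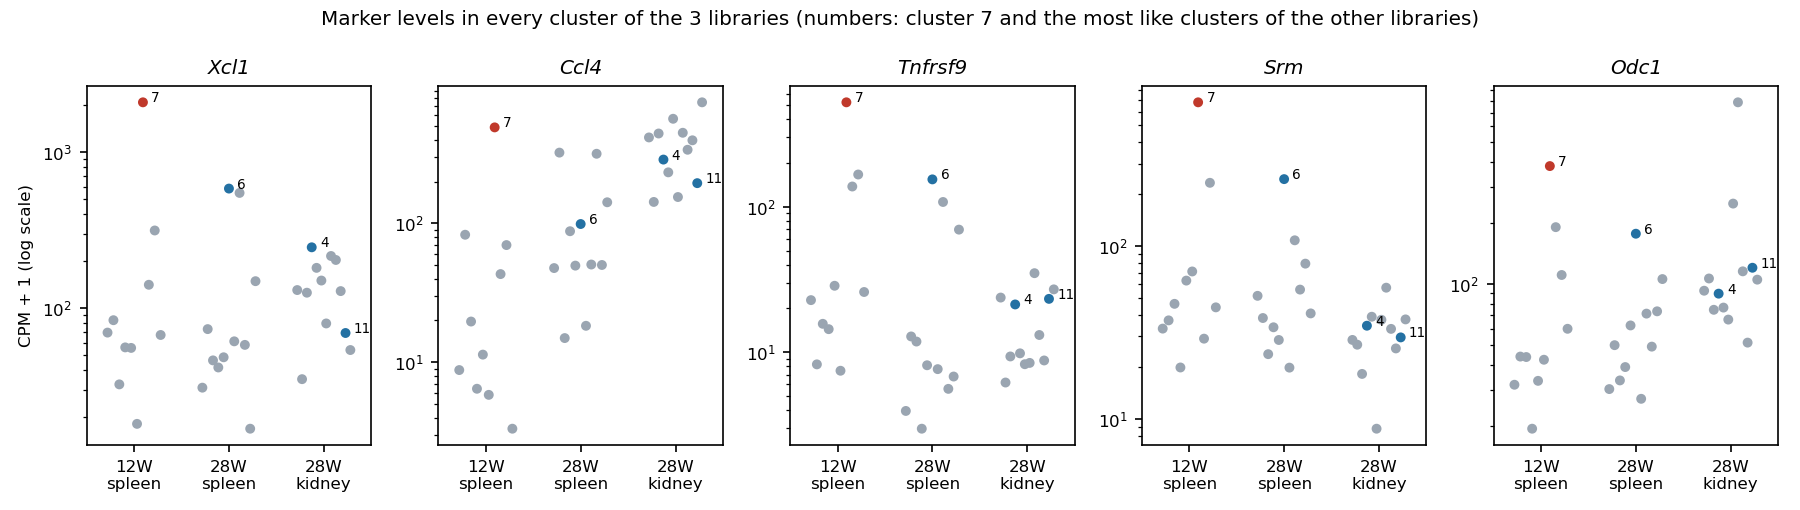
CPM + 1 (log axes) of the 5 markers in every cluster of 12W spleen, 28W spleen and 28W kidney, 1 point per cluster, with the most like clusters of the 28W libraries in blue. Cluster 7 of 12W spleen (red) has the highest *Xcl1*, *Tnfrsf9* and *Srm* of all 33 clusters, and cluster 6 of 28W spleen lies below it. *Ccl4* is higher in kidney clusters 12 (743 CPM, with myeloid transcripts) and 6 (565 CPM). *Odc1* is higher only in kidney cluster 8 (786 CPM, with B cell transcripts).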

How the data were processed

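RNA of sorted PD-1+CD44+CD8+ T cells was sequenced by single cell with a 5′ 10x Genomics kit. The submitters' processing notes name Cell Ranger 2.1.1, R 3.6.1 and GRCm38. For each library the authors deposited a cluster number per barcode and a table of mean counts per gene and cluster, in which every cluster of a library sums to the same total (3853, 4128 and 3501). The tables also hold the authors' log2 fold changes and adjusted p-values, which were not used. Each column was divided by its smallest value above 0, which gave whole UMIs for 100% of values within 0.001. Cell filters behind the tables are not given in the sources used here.

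CPM, ratios with a pseudocount of 1 CPM, a minimum of 20 CPM in either group and exact intervals were computed with Python 3.11.15 (pandas 2.3.3, scipy 1.17.1). With 1 library per group no test was made. The 12 samples were grouped by title, and 4 samples per group are pooled in the tables. The text names the 5 markers, members of 35 gene lists (with the highest and lowest ratio of each where any member reached the minimum), the 20 highest and 10 lowest ratios at 50 CPM or more, the 5 highest and 5 lowest against each of the 2 most like clusters, and the 3 most used Trbv and Trav segments, with V, D and J segments ranked apart. Members and lists were chosen with earlier results of these data known. No matrix of single cells was used, so no doublet caller was run. *Il10*, *Lif* and *Il17a* are not in the 12W table. Gene positions are from GENCODE M21. Calculations were tested on simulated data. Alternatives changed the comparator, scale, pseudocount, minimum and fold. Some listed genes are not reported here.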

Additional observations from a re-analysis of the deposited data

How the results depend on the processing

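With 1 library per group, depth limits only the counting error, and the spread between mice or preparations could not be measured. No paired analysis was possible because the 4 samples of each group are pooled. The scale mattered most. By UMIs per cell, a scale added after the data were seen, 3931 genes were at least 2-fold higher and 163 lower, against 987 and 1119 in CPM, and the marker median was 5.63 against 4.14. A 1.5-fold limit gave 1652 higher and 1752 lower genes, and a 4-fold limit 199 and 321. The count of lower genes was 1887 at a minimum of 5 CPM, 612 at 50 CPM and 2378 with no minimum. Leaving out each other cluster in turn gave 891 to 1049 higher and 971 to 1162 lower genes. The marker median was 4.05 without cluster 1, 3.99 without cluster 2, 3.96 without cluster 4, 4.07 without cluster 6 and 4.66 without cluster 9. It was 4.52 against the median of the 9 other clusters and 3.78 with a pseudocount of 10 CPM.

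Some directions reversed. Per cell the medians were 0.067 for AP-1 genes, 0.23 for chemokine receptors and 0.40 for G2/M genes. The G2/M median was 1.19 against the median of the 9 other clusters, 1.57 without clusters 3, 8 and 10, which have outlying UMIs per cell or haemoglobin, and 1.503 without cluster 10 alone. *Mki67* had log2 ratios of 0.74 and 0.57 under the first and the second of these comparators. *Hbb-bs* had 0.07 without cluster 3 and 0.024 without clusters 3, 8 and 10. Log2 ratios per cell were 0.23 for *Ccr7*, 0.48 for *Cd3d*, 0.55 for *Cd3e*, 0.53 for *Cd3g*, 0.17 for *Cd8b1*, 0.25 for *Ctsw*, 0.33 for *Hk1*, 0.33 for *Pim2*, 0.33 for *Tcf7* and 0.39 for *Tox*, where their CPM was lower in cluster 7. These reversals per cell follow from the 2.94 times larger UMI total of its cells.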
